A study of Mus musculus with 16 samples.

Results

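Of the 20807 autosomal protein-coding genes in the GENCODE M21 annotation, 10576 had a peak of RNA polymerase II (Pol II) within 1000 bp of the transcription start site (TSS) in both wild-type and mutant mouse embryonic fibroblasts (MEFs). Among these Pol II genes, 624 (5.90%) had no peak of monoubiquitylated histone H2B (H2Bub1) over any base of the gene body in either genotype, and these 624 genes are described here. They were chosen by the measured Pol II and H2Bub1 peaks of the MEF libraries, so their MEF values are given as a description, whereas mESC libraries and promoter sequence took no part in the choice. Gene length enters through the demand that no base of the body lie in a peak. The other Pol II genes had H2Bub1 in mutant MEFs only (3924 genes), in both genotypes (6015 genes) or in wild-type MEFs only (13 genes).

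The wild-type (WT) cells were Atxn7l3+/+ and the mutant (KO) cells Atxn7l3-/-, all of the mixed strain DBA/2 x C57BL/6 and with no treatment given. MEFs were made from individual embryos at E10.5, the mutant cultures held many round cells beside the elongated ones, and mESCs were embryonic stem cells grown from blastocysts with LIF and inhibitors of MEK and GSK3. The null allele was obtained by crossing carriers of a targeted Atxn7l3 allele to an FLP deleter strain. Chromatin immunoprecipitation and sequencing (ChIP-seq) used antibodies against H2Bub1 and against RPB1, the largest Pol II subunit, with 1 library per cell type, genotype and antibody. Genes are not replicates of a condition, so differences between libraries stand without a test. The 95% intervals are exact binomial ones that cover counting over the genes of these libraries only, and the number of reads behind each peak list is unknown.

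H2B is ubiquitylated on transcribed genes by the RNF20/RNF40 ligase, which travels with elongating Pol II through the PAF complex, so that H2Bub1 is known as a mark of the bodies of active genes. The ubiquitin is removed by USP22 and the related proteases USP27X and USP51, which need the adaptors ATXN7L3 and ENY2.

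Promoter sequences of 6 of the genes are shown because these genes had some of the highest Pol II folds of the set, and the histone genes because they were the largest strongly occupied group. Each run holds the 200 bases upstream of the TSS, 5′ to 3′ on the coding strand, read from the RefSeq copy of GRCm38. Capitals mark matches to TATAAA or its reverse complement, to CCAAT or its reverse complement ATTGG, and to GGGCGG or its reverse complement CCGCCC. Dgat2 lies on the minus strand (chr7:99182720-99182919), Atp1b2 on the minus strand (chr11:69605943-69606142), Hist1h3e on the minus strand (chr13:23562370-23562569) and Hist1h4c on the minus strand (chr13:23698455-23698654). Hist1h2ag (minus strand, chr13:22042945-22043144) and Hist1h2bj (plus strand, chr13:22043014-22043213) are a divergent pair whose windows overlap, and this pair was picked for display after its values were seen.
Dgat2: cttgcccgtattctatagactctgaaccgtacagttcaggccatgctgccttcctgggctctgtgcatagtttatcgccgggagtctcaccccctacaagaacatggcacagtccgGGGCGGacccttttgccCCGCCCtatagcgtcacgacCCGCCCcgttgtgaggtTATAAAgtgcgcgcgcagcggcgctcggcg
Atp1b2: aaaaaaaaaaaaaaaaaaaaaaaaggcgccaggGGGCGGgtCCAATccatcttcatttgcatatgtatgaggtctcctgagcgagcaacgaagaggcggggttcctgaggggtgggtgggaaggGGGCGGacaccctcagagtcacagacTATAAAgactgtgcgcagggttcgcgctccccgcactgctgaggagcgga
Hist1h3e: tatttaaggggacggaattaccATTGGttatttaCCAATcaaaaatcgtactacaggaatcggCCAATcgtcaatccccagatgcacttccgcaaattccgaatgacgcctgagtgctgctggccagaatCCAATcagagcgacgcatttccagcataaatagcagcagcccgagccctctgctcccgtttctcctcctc
Hist1h4c: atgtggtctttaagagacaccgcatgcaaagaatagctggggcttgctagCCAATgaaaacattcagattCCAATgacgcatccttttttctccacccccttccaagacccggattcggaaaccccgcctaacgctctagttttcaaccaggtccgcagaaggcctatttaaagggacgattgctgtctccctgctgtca
Hist1h2ag: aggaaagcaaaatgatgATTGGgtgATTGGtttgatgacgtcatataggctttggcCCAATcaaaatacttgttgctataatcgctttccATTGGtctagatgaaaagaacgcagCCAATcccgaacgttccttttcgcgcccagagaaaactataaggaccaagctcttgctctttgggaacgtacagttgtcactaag
Hist1h2bj: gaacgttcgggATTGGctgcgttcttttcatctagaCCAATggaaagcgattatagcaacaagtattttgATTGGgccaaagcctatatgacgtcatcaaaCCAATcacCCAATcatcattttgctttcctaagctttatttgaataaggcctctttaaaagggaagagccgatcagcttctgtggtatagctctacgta
The run of Dgat2 held 18 CpG dinucleotides and that of Hist1h2bj held 7. The TATAAA match began at -30 from the Dgat2 TSS and at -50 from that of Atp1b2. The Hist1h2ag run held 5 CCAAT or ATTGG matches, and so did that of Hist1h2bj.

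The MEF peak lists differed between the genotypes in ways that touch the choice of the set. WT MEFs had 19725 H2Bub1 peaks over 48.1 Mb and KO MEFs 28856 over 223 Mb, while Pol II had 45870 peaks in WT and 32232 in KO. All 8 fibroblast markers, among them Col1a1, Thy1 and Pdgfra, had Pol II promoters in both MEF lists and in neither mESC list, and 6 of 7 pluripotency markers had them in each mESC list. In MEFs 1 of the 7 had one in WT and 2 in KO (Klf4 and Tfcp2l1 in all), with folds of 7.08 to 26.8. Of the markers of differentiated cell types, Pol II promoters were found in WT and KO MEFs for 2 and 1 of 6 endothelial, 1 and 2 of 6 blood, 2 and 2 of 7 neural, 0 of 5 muscle and 0 of 6 epithelial genes, with folds of 2.36 to 10.6, and their part in the results was not tested. No gene of any marker list was in the set. At Atxn7l3 itself the promoter had a Pol II peak of 20.9-fold over background in WT and 23.4-fold in KO MEFs, and Pol II peaks covered 54.7% and 51.7% of the body beyond the first 1000 bp. H2Bub1 covered 22.0% of its body in WT and 65.3% in KO MEFs, and 100% in WT and 62.5% in KO mESCs. These shares of the whole body do not locate the altered part of the gene and so do not test the null allele.

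At the threshold, 3 genes lay nearest to KO H2Bub1 without touching it: Zfp607b, a zinc finger gene, at 4 bp, Ccdc40, an axoneme assembly factor, at 8 bp, and 2010109A12Rik at 13 bp. Just outside the set, 3 bases of a KO peak overlapped Car7, 9 bases overlapped Morn5 and 10 bases overlapped Nmbr. These bases made up 0.0192%, 0.0297% and 0.0153% of the 3 bodies.

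Genes without H2Bub1 had weaker Pol II peaks than the other Pol II genes. The fold over background of the promoter peak had a median of 7.64 in WT MEFs (quartiles 5.24 and 11.6) and of 5.04 in KO MEFs (quartiles 3.62 and 7.69). For genes with H2Bub1 in KO MEFs only the medians were 11.6 and 9.92, and for genes with H2Bub1 in both genotypes 16.0 and 13.6. By quintiles of the WT fold, 16.9% (15.3 to 18.5%) of the Pol II genes in the lowest quintile had no H2Bub1, then 5.82%, 2.65% and 1.94%, and 2.22% (1.64 to 2.94%) in the highest. The lowest quintile held 357 of the 624 genes and the highest 47.

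**Figure D1:**
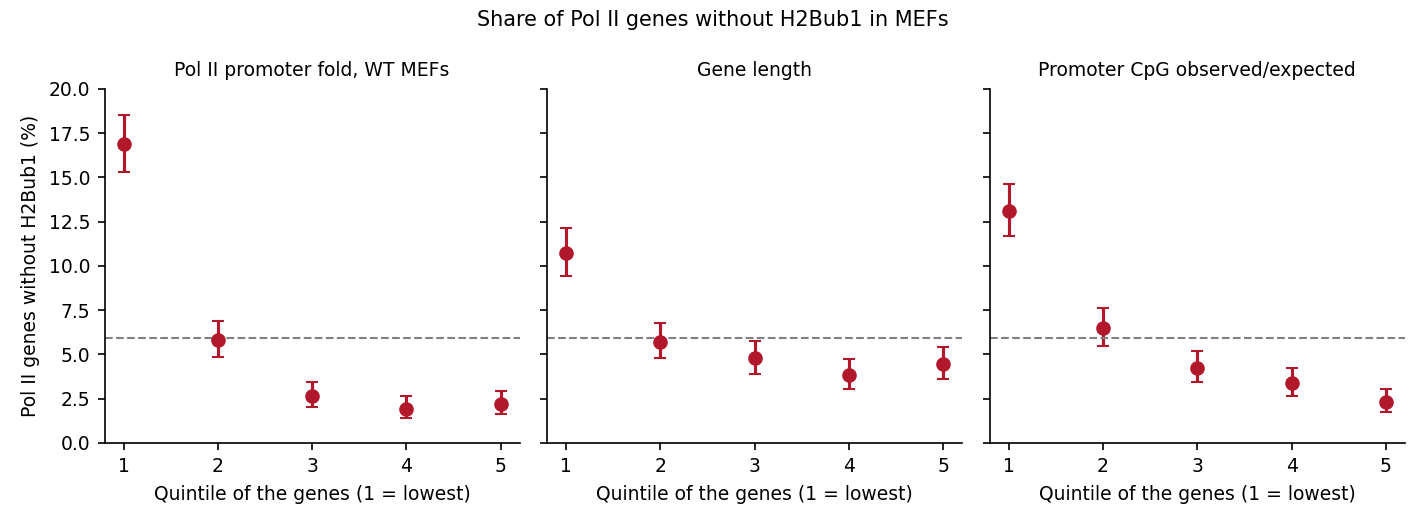
Percentage of Pol II genes without H2Bub1 in MEFs (y axis) in quintiles of the 10576 Pol II genes by WT Pol II promoter fold, gene length and promoter CpG observed over expected (x axis, 1 is the lowest). Points are shares, bars exact 95% intervals and the dashed line the share over all Pol II genes (5.90%); the lowest quintile is the highest point in each panel.

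The genes spanned a wide range of lengths, from 381 bp to 1972576 bp. Their median length was 13560 bp (quartiles 4267 and 35025 bp), against 16921 bp for genes with H2Bub1 in KO only and 28492 bp for those with H2Bub1 in both genotypes. Of the shortest quintile of Pol II genes (102 to 7780 bp), 10.7% (9.45 to 12.1%) had no H2Bub1, and the other quintiles had 5.72%, 4.78%, 3.83% and 4.44%. A longer gene has more bases on which 1 base of a peak is enough for a call, and the part of this in the difference was not tested.

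Some very long genes were also without a peak. Dlg2, a synaptic scaffold gene, had no H2Bub1 peak in MEFs over 1972576 bp, with a Pol II fold of 22.1 in WT and 10.4 in KO. Its Pol II summit lay at -738 bp from the TSS in WT, and Tmem126b starts 671 bp from the Dlg2 TSS. Ctnna3, an alpha-catenin gene, had folds of 2.92 and 4.02 over 1573570 bp, and Lrmda had 2.98 and 5.22 over 1036374 bp. Immp2l, a mitochondrial inner membrane peptidase of 931499 bp, had folds of 14.1 and 9.0 with summits 171 and 111 bp downstream of its TSS. Pol II peaks covered from 0.0339% (Dlg2) to 0.0892% (Immp2l) of the body beyond the first 1000 bp of these 4 genes in WT MEFs, and none of it in KO MEFs.

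At the annotated TSS, promoters of the set were poorer in CpG than those of the other classes. The WT Pol II summit lay within 250 bp of that TSS in 55.4% of the set, against 72.1% and 75.03%. The counted window was thus more often away from the summit in the set, and the part of this in the difference was not tested. The ratio of observed to expected CpG, over 250 bases before to 50 after the TSS, had a median of 0.591 (quartiles 0.345 and 0.787), against 0.731 and 0.815 in the other classes. Of the quintile of Pol II genes with the lowest ratio, 13.1% (11.7 to 14.6%) had no H2Bub1, and of the quintile with the highest ratio 2.32% (1.72 to 3.05%). TATAAA was present on either strand in 9.94% of the 624 promoters, in 6.71% of all Pol II genes and in 12.7% of all autosomal protein-coding genes. CCAAT was present on either strand in 40.5%, 39.4% and 38.6% of these, and GGGCGG in 53.0%, 64.7% and 43.7%. Without its histone genes the set had TATAAA in 8.19% (6.12 to 10.7%) of 598 promoters, an interval that spans the 6.71% of all Pol II genes. The 3 motifs were searched separately and matches may overlap.

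Several of the strongest Pol II peaks in the set had their summit away from the TSS of the member. Parp16, which encodes an ADP-ribosyltransferase of the endoplasmic reticulum, had the highest fold of the set, 47.8 in WT and 50.1 in KO MEFs, and its summit lay 1150 bp downstream of the TSS in WT and 1001 bp in KO. The nearest other TSS, 1334 bp from that of Parp16, is that of the small nuclear RNA gene Gm25313. Slc5a5, the sodium-iodide symporter, had folds of 20.5 and 19.9, with the summit at -936 bp from the TSS in WT and at -4594 bp in KO. Cabyr, a calcium-binding protein of sperm, had folds of 31.4 and 24.8 with summits 1055 and 1062 bp downstream. Lag3, an inhibitory receptor of T cells named after its values were seen, had 46.5 in WT and 4.81 in KO, and its WT summit lay at -6192 bp.

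Other strong promoters were centred. Dgat2, which makes triacylglycerol, had a summit 40 bp downstream of its TSS in WT and 32 bp in KO, with folds of 23.5 and 19.6. Atp1b2, a beta subunit of the sodium pump, had summits at 14 and 37 bp and folds of 21.9 and 16.9. The nearest other TSS lay 19647 bp from Dgat2 and 11963 bp from Atp1b2, and both genes had no Pol II peak more than 1000 bp into the body in either genotype. The nearest KO H2Bub1 peak lay 11348 bp from Dgat2 and 7293 bp from Atp1b2.

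Over the set, 55.4% (51.5 to 59.4%) of the WT summits lay within 250 bp of the TSS, against 72.1% of genes with H2Bub1 in KO only and 75.03% of genes with H2Bub1 in both genotypes. The TSS itself was inside the WT peak in 81.1% of the set, against 93.7% and 96.6%. Another annotated TSS lay within 1000 bp in 27.4% (23.9 to 31.1%) of the set, which is fewer than the 34.6% of all Pol II genes. Of the 171 genes with such a neighbour, 155 had it on the opposite strand. Where the neighbour was protein-coding (124 genes), 94 of the neighbours had H2Bub1 in their own bodies in MEFs and 30 were themselves in the set. A WT peak that also held the TSS of an H2Bub1-bearing gene was found for 109 of the 624 genes (17.5%), fewer than the 25.6% of genes with H2Bub1 in KO only and the 21.0% of genes with H2Bub1 in both. For 386 genes (61.9%) their own TSS, and no other protein-coding one, was inside the peak, against 68.4% and 75.5%.

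Some axoneme and sperm genes started near another gene and had their summit off the TSS. Dnali1, an axonemal dynein light chain, had folds of 18.9 in WT and 17.6 in KO with its summit at -846 bp. Efcab9, part of a sperm calcium channel complex, had 17.5 and 16.8 with the summit at -1257 bp, and Stk10 starts 1224 bp away. Iqcg had 27.4 and 15.5, and starts 235 bp from the ribosomal protein gene Rpl35a. H2Bub1 in KO MEFs began 130 bp from the Iqcg body, 68 bp from that of Efcab9 and 836 bp from that of Dnali1.

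Over all 624 genes the nearest KO H2Bub1 peak lay a median of 6928 bp from the body, with 43.3% of the genes within 5000 bp. The nearest WT peak lay a median of 24819 bp away. No autosome was without such genes, and their share of the Pol II genes ran from 3.56% on chromosome 6 to 8.92% (39 of 437 genes) on chromosome 13, where the largest histone gene cluster lies.

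Pol II fold was lower in KO than in WT MEFs at most of these promoters. The KO fold was below the WT fold in 506 of 624 genes (81.1%), against 64.3% of genes with H2Bub1 in KO only and 68.1% of those with H2Bub1 in both. On the log2 scale the KO fold relative to the WT fold had a median of -0.49 (quartiles -0.91 and -0.13), against -0.20 and -0.22. The set was also lower within quintiles of the WT fold, where the medians of the set ran from -0.35 in the lowest to -0.89 in the highest quintile, and those of genes with H2Bub1 in KO only from 0.03 to -0.39. In the highest quintile 22 of the 47 genes of the set were histone genes, and the median of all 26 histone genes of the set was also -0.89. The WT fold sets the quintiles and is also part of the ratio. The KO fold was at least 2 times lower in 128 genes (20.5%) and at least 2 times higher in 2 (0.321%), Acer2 and Gm12185. In genes with H2Bub1 in KO only these shares were 6.42% and 2.37%, and in genes with H2Bub1 in both 6.28% and 0.665%. Each fold is relative to the background of its own library and gives no absolute change, and the values of all classes rest on the same pair of Pol II libraries.

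Named after their values were seen, 4 genes with some of the largest falls had their WT summit near the TSS. Ndnf, a secreted protein, went from 17.6 in WT to 3.55 in KO with its WT summit 65 bp downstream of the TSS, Tmem45a from 22.4 to 4.44 with the summit at -158 bp, and Rgcc, a cell cycle regulator, from 19.4 to 4.06 with the summit at 48 bp. Spp1, which encodes the matrix protein osteopontin, went from 15.8 to 3.75 with the summit at 73 bp. Among the families described further on, the cartilage collagens Col11a2 and Col9a3 went from 11.5 to 4.57 and from 8.17 to 3.30, and the serotonin receptor gene Htr1b from 12.3 to 3.11. In the other direction Acer2, an alkaline ceramidase, went from 12.2 to 25.2, with its WT summit 46 bp downstream of the TSS.

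**Figure D2:**
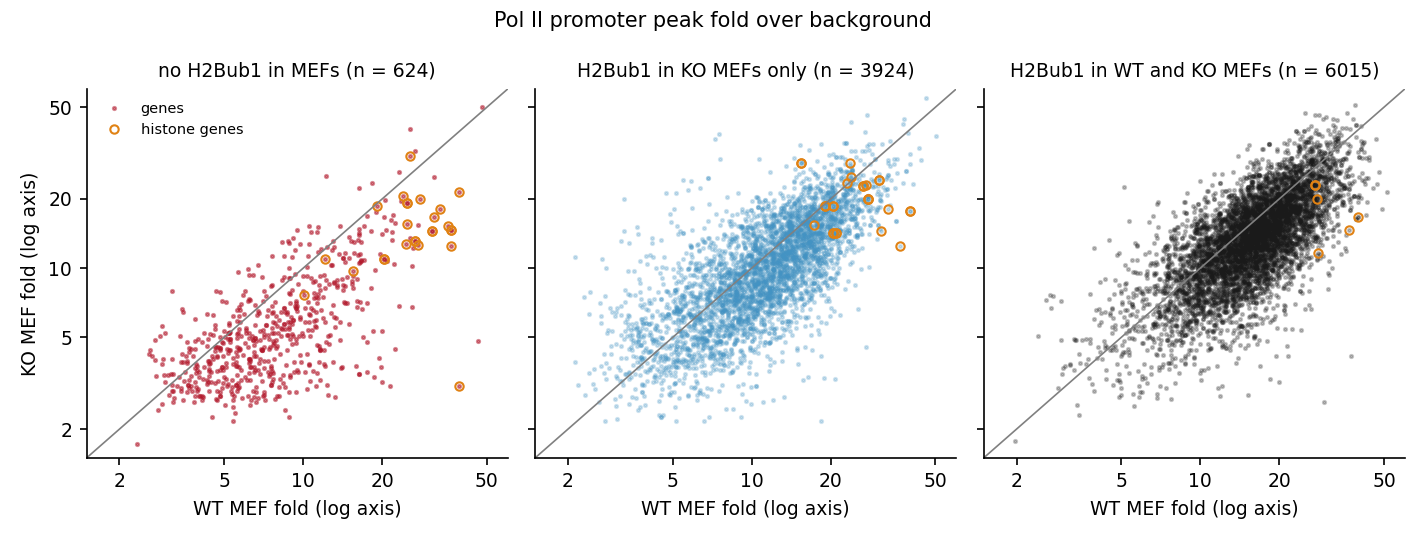
Fold over background of the Pol II promoter peak in WT MEFs (x axis) and KO MEFs (y axis), both on log axes, for each of the 624 genes without H2Bub1 and for the 2 larger classes with it, with replication-dependent histone genes ringed and the line of equal fold in grey. In the left panel 506 of 624 points lie below the line, and all but 1 of the 26 ringed histone genes do so.

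Pol II in the body was less frequent than in the other classes. Body Pol II was called where a peak covered any base from 1000 bp downstream of the TSS to the gene end, in genes of 2000 bp or more. It was present in 247 of 549 genes of the set in WT MEFs (45.0%, 40.8 to 49.3%), against 65.7% of all Pol II genes, and in 147 (26.8%, 23.1 to 30.7%) in KO MEFs, against 54.2%. Genes with H2Bub1 in KO only had 54.3% in WT and 45.8% in KO, and genes with H2Bub1 in both had 74.8% and 62.0%. Within the lowest quintile of WT fold the WT shares were 39.5% (34.1 to 45.1%) in the set, 45.8% (42.9 to 48.7%) and 58.3% (54.1 to 62.5%). In the other quintiles, from low to high, the set had 48.3%, 59.6%, 51.3% and 60.9%, and genes with H2Bub1 in KO only had 51.4%, 57.2%, 63.7% and 67.5%. The intervals of these classes overlap in each of the 5 quintiles, which is not a test of their difference. The set was the lower in every quintile but the middle one, and the KO shares were not split by quintile.

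**Figure D3:**
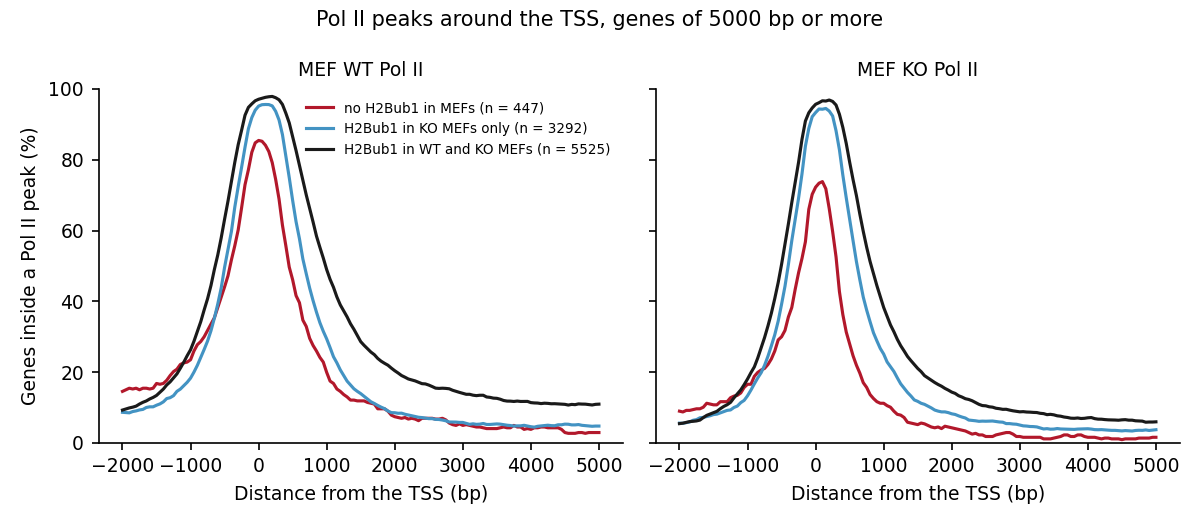
Percentage of genes inside a Pol II peak (y axis) by distance from the TSS in bp (x axis, negative upstream) in WT and KO MEFs, for genes of 5000 bp or more of the 3 classes. At the TSS 85.5% of the genes without H2Bub1 were inside a WT peak and 72.3% inside a KO peak; 1000 bp downstream these shares were 19.9% and 11.2%, below both other classes.

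A small group had Pol II peaks along most of the body and still no H2Bub1 peak. Peaks covered at least 50% of the body beyond the first 1000 bp in both genotypes in 21 of 549 genes (3.83%, 2.38 to 5.79%), close to the 2.96% and 5.03% of the other classes. These were short genes with a median length of 3676 bp. Nanos1, an RNA-binding regulator of germ cells named after its values were seen, had 100% of its body beyond the first 1000 bp in WT and 98.2% in KO inside Pol II peaks, with promoter folds of 25.9 and 10.3. Mst1, which encodes the macrophage-stimulating growth factor, had 76.1% and 55.1% with folds of 10.7 and 14.4. Tbx6, a T-box factor of paraxial mesoderm, had 89.8% and 71.6% with folds of 5.27 and 4.43. The nearest KO H2Bub1 peak lay 2948 bp from Nanos1, 1127 bp from Mst1 and 1682 bp from Tbx6.

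Replication-dependent histone genes, the intronless genes that supply nucleosomes in S phase, had the highest share in the set among families with 15 or more Pol II genes. Among 59 histone genes with Pol II promoters, 26 (44.1%, 31.2 to 57.6%) had no H2Bub1 in MEFs, against 5.90% of all Pol II genes. The 26 became 42 of a set of 1235 genes with peaks of −log10 q of at least 3, and 10 of 351 with no H2Bub1 allowed within 5000 bp. They became 8 of 453 without genes that have another TSS within 1000 bp, and 2 of 168 without genes under 5000 bp from another coding gene. How many histone genes with Pol II were left under each setting is not given here, so these counts are not shares of the family. The 26 comprised 9 of 13 H4 genes, 7 of 15 H2A genes, 5 of 14 H2B genes, 3 of 12 H3 genes and 2 of 5 H1 genes, and 24 of the 26 lay on chromosome 13. The genes were 381 to 1753 bp long. Among Pol II genes under 2000 bp, 26 of 53 histone genes (49.1%, 35.1 to 63.2%) and 49 of 291 others (16.8%, 12.7 to 21.6%) had no H2Bub1. The histone share was also above that of other genes under 2000 bp, but length was not matched within that limit.

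The histone genes had stronger Pol II than most of the set, and 22 of the 26 lay in the highest quintile of WT fold, which held 47 genes of the set. Their promoter folds ran from 10.0 to 39.0 in WT MEFs with a median of 26.6, and from 3.07 to 30.6 in KO MEFs with a median of 14.5. Hist1h3e was the only 1 of the 26 with a higher fold in KO, 25.4 in WT and 30.6 in KO. Hist1h4c went from 39.0 to 21.4, and Hist1h4j from 24.0 to 20.6. Hist1h4a and Hist1h3a, whose TSSs are 1156 bp apart, shared 1 peak with folds of 24.9 and 19.3, and the divergent genes Hist1h2ag and Hist1h2bj shared 1 with 36.7 and 14.6. The 26 genes used 18 distinct WT peaks, so they are not 26 separate measurements. Hist1h1t, the linker histone of the testis and likewise picked after its values were seen, shared the WT peak of Hist1h4c and had 3.07 in KO, where a separate peak was called.

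The 33 histone genes with H2Bub1 in MEFs had a median fold of 27.3 in WT, close to the 26.6 of those without it, and of 18.6 in KO, above their 14.5. On the log2 scale their KO to WT median was -0.33 (-0.53 to -0.22), against -0.89 (-1.10 to -0.48). Many gene copies of the same histone type are nearly identical in coding sequence, though the promoter runs shown above differ. How the alignment placed reads that fit several copies is not given in the sources used here. For peaks that reach into coding sequence, which copy a peak belongs to is therefore uncertain. TATAAA was present in 13 of the 26 promoters (29.9 to 70.1%) and CCAAT or its reverse complement in 20 (76.9%, 56.4 to 91.0%), against 6.71% and 39.4% of all Pol II genes.

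Genes named for the axoneme, cilium or sperm, a list made after values were seen, had 24 of 70 without H2Bub1 (34.3%, 23.3 to 46.6%), and 11 of the 24 had another TSS within 1000 bp. Genes known only by a model or clone name had 62 of 402 (15.4%, 12.03 to 19.3%). Among 11 chemokine genes and receptors with Pol II, 5 had no H2Bub1 (45.5%, 16.7 to 76.6%), against 5.90% of all Pol II genes, and in Cxcl1, a neutrophil attractant, the fold was 13.3 in WT and 5.56 in KO with a summit 96 bp downstream. Ccl27a had 6.30 and 7.27, and Ccl4 had 4.90 and 7.20. Of 23 Fox and Sox factors 5 had none (21.7%, 7.46 to 43.7%, also above 5.90%), among them Sox30, a factor of spermatogenesis, with 14.5 and 10.6, Foxa3, a forkhead factor of liver, with 18.1 and 8.23, and Foxd2 with 9.76 and 4.18. The Foxa3 summit lay at -907 bp, and Sympk starts 839 bp away.

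Neurotransmitter receptors had 4 of 7 without H2Bub1 (18.4 to 90.1%), potassium, sodium and calcium channels 4 of 13 (9.09 to 61.4%) and collagens 3 of 16 (4.05 to 45.6%), the last of which spans the 5.90% of all Pol II genes. Chrnb1, the muscle acetylcholine receptor beta subunit, had folds of 10.7 and 9.10, and Chrna10 had 4.71 and 4.12. Kcnk7, of the potassium channel list, had 13.3 and 6.07. For 3 of the 4 olfactory receptor genes with Pol II no H2Bub1 was found, with folds of at most 4.67. Solute carriers had 12 of 165 (7.27%, 3.81 to 12.4%), which spans the 5.90% of all Pol II genes. Zfp-named zinc finger genes had 9 of 302 (2.98%, 1.37 to 5.58%).

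Ribosomal protein genes were absent from the set. None of 73 cytosolic ribosomal protein genes (0 to 4.93%) and none of 76 mitochondrial ribosomal protein genes (0 to 4.74%) was in the set, although genes of the first kind are short, with a median of 3289 bp. Respiratory chain genes had 3 of 89 (3.37%, 0.701 to 9.54%), and these 3 were Cox7a1, Cox8b and Ndufa4l2. Cox7a1 and Cox8b are muscle and heart forms of cytochrome oxidase subunits, and had WT folds of 8.83 and 3.93. None of 18 genes for the H2B ubiquitylation machinery was in the set (0 to 18.5%), and the immediate early genes, which are quickly induced, had 2 of 34 (5.88%, 0.72 to 19.7%). The intervals of these last 3 lists span the 5.90% of all Pol II genes.

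**Figure D4:**
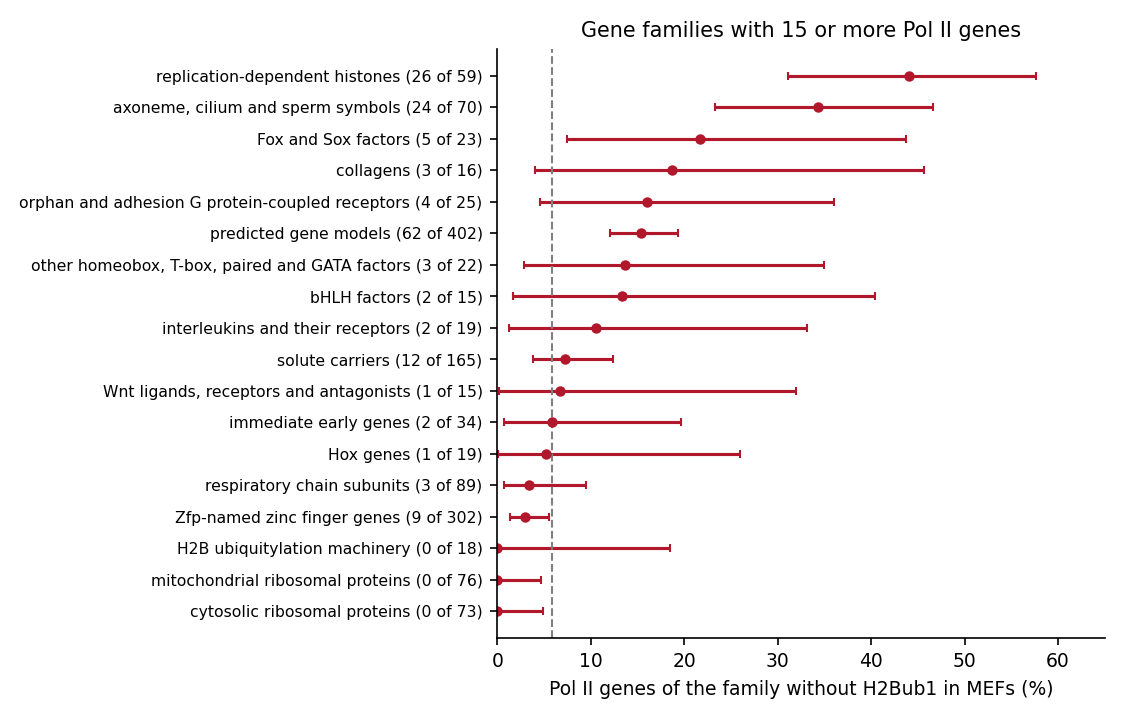
Percentage of the Pol II genes of each family without H2Bub1 in MEFs (x axis), for families with 15 or more Pol II genes, with exact 95% intervals and, as a dashed line, the 5.90% of all Pol II genes. Histone genes (44.1%) and axoneme, cilium and sperm genes (34.3%) are the highest points, and both ribosomal protein families are at 0. The axoneme, cilium and sperm list was made after values were seen, so its rank and interval are a description only.

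In mESCs, which took no part in the choice, the genes of the set carried H2Bub1 less often than the other Pol II genes of MEFs. H2Bub1 was present in the body of 311 of 624 genes in WT mESCs (49.8%, 45.8 to 53.8%) and of 370 in KO mESCs (59.3%, 55.3 to 63.2%). With peaks of −log10 q of at least 3 in all lists, which also changed the set to 1235 genes, the shares were 8.74% and 30.3%, and with a call at 10% of the body, which gave 1548 genes, they were 21.8% and 33.7%. Over all autosomal protein-coding genes, with or without Pol II, the shares were 55.7% in WT and 62.1% in KO. Genes with H2Bub1 in KO MEFs only had 74.2% and 90.2%, and genes with H2Bub1 in both MEF genotypes 93.3% and 97.6%. The difference from genes with H2Bub1 in KO MEFs only was -24.3 percentage points (-28.6 to -20.1) in WT and, in KO mESCs, -30.9 points (-35.0 to -26.9). H2Bub1 was in both mESC lists for 255 genes of the set, in WT only for 56, in KO only for 115 and in neither for 198 (31.7%, 28.1 to 35.5%). In the other classes 8.03% and 1.88% had it in neither.

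Against genes with H2Bub1 in KO MEFs only, Pol II differed by fewer points than H2Bub1. A Pol II promoter peak was present in 48.1% (44.1 to 52.1%) of the set in WT mESCs and in 39.4% (35.6 to 43.4%) in KO mESCs, against 35.3% and 32.1% of all autosomal protein-coding genes. Genes with H2Bub1 in KO MEFs only had 55.6% and 50.4%, from which the set differed by -7.53 points (-11.8 to -3.23) and -11.0 points (-15.1 to -6.70). Genes with H2Bub1 in both MEF genotypes had 71.2% and 67.6%, and the set differed from them by -23.1 points (-27.3 to -18.96) and -28.2 points (-32.2 to -24.0). Without genes that have another TSS within 1000 bp, the WT difference in Pol II was -2.11 points (-7.19 to 3.00) and that in KO -7.06 points (-11.96 to -2.02), while those in H2Bub1 were -20.3 points (-25.3 to -15.3) and -27.5 points (-32.3 to -22.8). Among the genes with Pol II in both mESC lists, the KO to WT fold ratio had a log2 median of -0.07 over 207 genes of the set, against -0.000881 and 0.0383 in the other classes. Body Pol II in mESCs was found in 24.4% of the set in WT and 16.0% in KO, against 25.2% and 14.0% of genes with H2Bub1 in KO MEFs only, differences of -0.79 points (-4.61 to 3.27) and 1.99 points (-1.20 to 5.50). From the 32.8% and 21.7% of genes with H2Bub1 in both MEF genotypes it differed by -8.39 points (-12.1 to -4.39) and -5.71 points (-8.87 to -2.21).

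With all peaks and a call at 1 base, genes of the set that had Pol II in mESCs mostly carried H2Bub1 there, though less often than the other classes. Of the 207 genes of the set with Pol II promoters in both mESC lists, 142 (68.6%, 61.8 to 74.9%) had H2Bub1 in WT mESCs, and KO mESCs had it in 160 (77.3%, 71.0 to 82.8%). The shares were 88.0% and 97.2% in genes with H2Bub1 in KO MEFs only, and 98.1% and 99.8% in genes with H2Bub1 in both. Among the 285 with Pol II in neither list, 31.2% and 43.5% did, against 55.7% and 78.7%, and 79.0% and 89.9%. The share with Pol II in both mESC lists and H2Bub1 in neither was 29 of 207 (14.0%, 9.59 to 19.5%), against 24 of 1647 genes (1.46%, 0.936 to 2.16%) with H2Bub1 in KO MEFs only and 1 of 3580 (0.0279%, 0.000707 to 0.156%) with H2Bub1 in both. Where a body held H2Bub1 in mESCs, the median covered share was 15.7% in WT and 15.6% in KO for the set, and 15.1% in WT and 30.9% in KO for genes with H2Bub1 in KO MEFs only. With peaks of −log10 q of at least 3, where the set was 1235 genes, 44.5% had Pol II in WT mESCs and 8.74% had H2Bub1. Most of its genes with Pol II in WT mESCs thus had no H2Bub1 call under that setting.

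The set had the lower share with H2Bub1 in mESCs in each quintile of MEF Pol II. In the lowest quintile of WT MEF fold, 52.4% (47.1 to 57.7%) of the set and 69.7% (67.0 to 72.2%) of genes with H2Bub1 in KO MEFs only had H2Bub1 in WT mESCs. In the highest quintile the shares were 53.2% (38.1 to 67.9%) and 79.8% (75.8 to 83.5%). In KO mESCs they were 62.2% against 85.7% in the lowest quintile and 38.3% against 92.3% in the highest, where 22 of the 47 genes of the set are histone genes. For Pol II in WT mESCs the order differed by quintile. In the lowest quintile, with 357 of the 624 genes, the set had 42.3% (37.1 to 47.6%), above the 33.7% (31.1 to 36.5%) of genes with H2Bub1 in KO MEFs only and the 35.8% (31.7 to 39.9%) of genes with H2Bub1 in both. In the next 3 quintiles the set had 43.1%, 48.2% and 63.4%, below the 48.7%, 65.9% and 75.1% of the first class and the 57.2%, 67.9% and 80.01% of the second, and of these only the middle quintile had an interval clear of that of the first class. In the highest quintile the set had 91.5% (79.6 to 97.6%), against 86.6% and 86.8%, with overlapping intervals.

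In mESCs the histone genes kept Pol II and, in KO cells, had almost no H2Bub1. All 26 of the set had Pol II in WT mESCs and 25 had it in KO mESCs, with folds of 3.19 to 35.8 and 6.11 to 36.7. H2Bub1 was present in 11 of the 26 in WT mESCs (42.3%, 23.4 to 63.1%) and in 1 (3.85%, 0.0973 to 19.6%) in KO mESCs. The 598 other genes of the set had 50.2% in WT and 61.7% in KO. Of the 33 histone genes that did carry H2Bub1 in MEFs, 26 had it in WT mESCs and 8 in KO mESCs. Hist1h4c and Hist1h3e had no H2Bub1 in any of the 4 lists, although their Pol II folds in WT mESCs were 17.7 and 16.8. Hist1h2ag had 75.7% of its body inside H2Bub1 peaks in WT mESCs and Hist1h2bj 80.1%, and both were at 0 in KO mESCs.

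**Figure D5:**
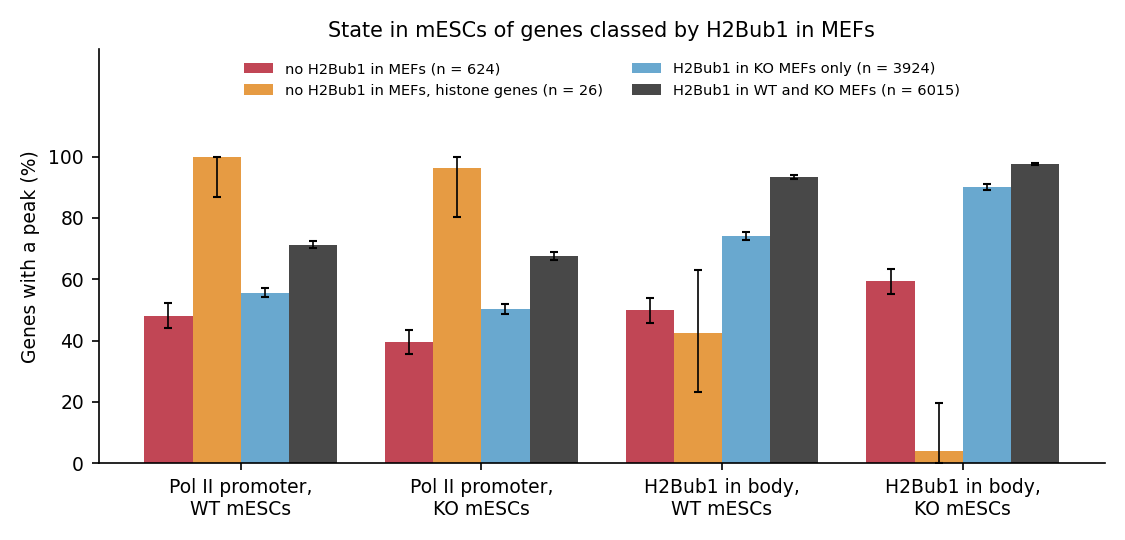
Percentage of genes with a Pol II promoter peak or with H2Bub1 in the body (y axis) in WT and KO mESCs, for the 624 genes without H2Bub1 in MEFs, the 26 histone genes among them, and the 2 classes with H2Bub1 in MEFs; bars are shares and error bars exact 95% intervals. H2Bub1 in the set was at 49.8% in WT and 59.3% in KO, and in its histone genes at 42.3% and 3.85%.

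Single genes showed how far the cell types could differ. Apoe, the apolipoprotein of lipid transport, had no H2Bub1 in MEFs at Pol II folds of 9.60 in WT and 8.50 in KO, and was covered over 100% of its body in both mESC genotypes, where its folds were 4.56 and 5.80. Lin7b, a cell polarity scaffold, had 14.5 and 8.37 in MEFs and was covered over 91.7% in WT and 100% in KO mESCs. The model gene 4930404N11Rik was covered over 100% in both mESC genotypes, and Mst1 over 58.5% in WT and 100% in KO without a Pol II promoter peak in either mESC list. 4930519P11Rik, a transcript of 501 bp that starts 140 bp from Zfp341, was covered over 92.8% and 100%. Folds of different lists are set side by side here and not compared, since each is relative to its own background.

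Members with strong Pol II differed in mESC H2Bub1. Parp16 had 3.74% of its body covered in WT and 23.5% in KO, at Pol II folds of 17.5 and 16.0. Dgat2 had 3.05% and 2.25%, at Pol II folds of 3.25 and 3.21. Atp1b2 had 41.8% and 42.1%, so its body held H2Bub1 in mESCs of both genotypes and none in MEFs of either. Among Dlg2, Ctnna3, Lrmda and Immp2l, only Ctnna3 had any H2Bub1 in WT mESCs, over 0.0252% of its body, and the highest coverage in KO mESCs was the 0.453% of Immp2l.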

How the data were processed

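H2Bub1 and Pol II were measured by ChIP-seq in Atxn7l3+/+ and Atxn7l3-/- mESCs and MEFs, with 1 library per group. Per the submitters' processing notes, Bowtie 1.0.0 and MACS2 2.1.1.20160309 were used. In the deposited peak lists the authors' caller gave each peak a fold enrichment over background, a −log10 p, a −log10 q and, for Pol II, a summit offset in bp. Thresholds, control and the treatment of reads with several placements are not given in the sources used here. Read depth of the lists is unknown. Coordinates are GRCm38 (mm10).

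A promoter call needed a Pol II peak within 1000 bp of the TSS of a GENCODE M21 gene, and the highest fold was taken. An H2Bub1 call needed 1 base of a peak in the body. Shares carry exact Clopper-Pearson 95% intervals. Differences combine the bounds of both shares. Scripts used Python 3.11.15, numpy 2.4.6, pandas 2.3.3, scipy 1.17.1, matplotlib 3.10.9 and pysam 0.24.0, and were tested on made-up peaks.

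The members and lists were chosen with earlier results of these data known, and family lists were edited after values were seen. Genes were named by rule as those with the highest lower value of both Pol II folds and no other TSS within 1000 bp, the longest, those with the most H2Bub1 in KO mESCs, those nearest the threshold and, in families with 3 or more members, the 3 with the highest lower fold. Others are said to be chosen after their values were seen. Alternatives changed the peak threshold, number of peaks, promoter window, margin, H2Bub1 call and neighbouring genes. Input and Pol II Ser2P libraries were not analysed here. Some items are not reported here.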

Additional observations from a re-analysis of the deposited data

How the results depend on the processing

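Recomputed under other settings, 54 values moved by less than their counting error (within 1.5 times for counts), 33 moved by more and none changed sign, and the cause was not tested. With peaks of −log10 q of at least 3 the set grew to 1235 genes (607 of the 624 shared), with a median length of 17622 bp, a WT fold of 8.39, a log2 KO to WT value of -0.43 and a CpG ratio of 0.623. H2Bub1 was then found in 8.74% in WT and 30.3% in KO mESCs, with differences from genes with H2Bub1 in KO MEFs only of -28.8 and -50.9 points. With equal numbers of Pol II peaks, WT mESC Pol II was at 41.9%. With no H2Bub1 within 5000 bp, 351 genes remained, with a WT fold of 6.97, body Pol II in 38.5% and another TSS in 16.8%. With an H2Bub1 call at 10% of the body there were 1548 genes, H2Bub1 in 21.8% (WT) and 33.7% (KO) of them in mESCs, and a KO difference of -38.6 points. For genes at least 5000 bp from another coding gene, 168 remained, with a median length of 22312 bp, a log2 value of -0.66, body Pol II in 33.5%, WT mESC Pol II in 36.3% and mESC H2Bub1 in 43.5% and 53.0%. Without another TSS within 1000 bp the WT fold was 7.02, the log2 value -0.57 and the CpG ratio 0.514. In genes of 5000 bp or more, a setting chosen after seeing the data, WT mESC Pol II was at 42.7%. The 26 histone genes became 42, 10, 2 and 8 under the peak threshold, the 5000 bp margin, the distance from coding genes and the absence of another TSS. These are counts in sets whose size also changed. No paired analysis was possible because each group has 1 library. A body without a peak may hold signal below the caller's threshold, and the part of depth in this is unknown.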
